A study of Mus musculus with 12 samples.

Results

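Metallothioneins and the zinc transporters around them were followed through mouse lungs injured by mechanical ventilation. The genes were Mt1, Mt2, Mtf1, Slc39a14 and Slc30a1, taken as every probe set whose annotation named 1 of these symbols and no other gene. This gave 14 probe sets for 5 genes, out of 18193 genes with a probe set, and all 5 genes were among the 12309 genes tested. For each gene the probe set with the highest mean led, and the others served as a check.

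Total RNA of whole lung from male C57BL/6 mice aged 8 to 12 weeks was read on 1 Affymetrix array per animal. The 4 groups of 3 animals were nmMLCK-/- mice with ventilator-induced lung injury (VILI), nmMLCK-/- mice under spontaneous breathing (SB), wild-type (WT) mice with VILI and WT mice under SB. The nmMLCK-/- mice lack nmMLCK, the long form of myosin light chain kinase found outside muscle and a product of Mylk. VILI animals were ventilated for 4 h at 65 breaths per min with an end-expiratory pressure of 0 cm H2O, with a tidal volume given as 40 ml/kg by the samples' own labels but as 30 ml/kg by the text on the series. The SB animals were not ventilated, and no group ventilated at a low tidal volume was analysed here, so ventilation itself and its high volume cannot be told apart. The sources used here do not say how the knockout line was made.

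Metallothioneins are small cysteine-rich proteins that bind zinc and copper and take up reactive oxygen species. Free zinc is sensed by the transcription factor MTF-1, the product of Mtf1, which binds metal response elements in the promoters of metallothionein genes and of Slc30a1. In mouse tissues the metallothionein genes also answer to glucocorticoids and to interleukin 6, and Slc39a14, which encodes a zinc importer of the plasma membrane, is known as an acute-phase gene in mouse liver. Slc30a1 encodes the exporter that moves zinc out of the cell.

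Mt1 and Mt2 lie next to each other on chromosome 8 in the RefSeq annotation, beside Mt3 and Mt4. The bases before their RefSeq starts are shown because they hold letters that MTF-1 is known to bind. The metal response element core, TGCACNC or TGCGCNC on either strand, is in capitals in the 250 bases before each RefSeq start (GRCm38.p6). Mt1 is at chr8:94178839-94179088, Mt2 at chr8:94172368-94172617 and Slc30a1 at chr1:191906531-191906780, all on the plus strand.
Mt1: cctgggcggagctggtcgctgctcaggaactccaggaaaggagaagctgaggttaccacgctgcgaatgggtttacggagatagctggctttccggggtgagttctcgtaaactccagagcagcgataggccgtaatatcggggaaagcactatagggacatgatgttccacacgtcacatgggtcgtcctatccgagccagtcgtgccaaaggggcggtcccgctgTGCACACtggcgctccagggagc
Mt2: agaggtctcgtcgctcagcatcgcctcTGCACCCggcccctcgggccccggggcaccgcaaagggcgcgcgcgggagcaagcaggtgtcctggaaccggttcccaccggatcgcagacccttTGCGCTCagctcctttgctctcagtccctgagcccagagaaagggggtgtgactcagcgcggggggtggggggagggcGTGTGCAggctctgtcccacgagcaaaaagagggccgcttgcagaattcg
Slc30a1: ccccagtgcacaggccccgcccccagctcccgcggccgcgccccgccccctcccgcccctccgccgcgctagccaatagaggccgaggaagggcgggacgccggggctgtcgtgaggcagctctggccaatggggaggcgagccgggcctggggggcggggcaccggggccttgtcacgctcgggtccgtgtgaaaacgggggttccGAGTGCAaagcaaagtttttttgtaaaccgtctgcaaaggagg
The Mt2 window held 3 such cores, and the windows of Mt1 and Slc30a1 held 1 each. Among 32851 RefSeq windows of this length, 21.4% held at least 1 core and 1.26% held at least 3. The Mt1 window also held the letters GGACATGATGTTC, a match to the glucocorticoid response element GNACANNNTGTNC that 0.387% of windows shared. An antioxidant response element core, TGACNNNGC, stood once in the Mt2 window and once in that of Slc30a1, against 10.2% of all windows. The Mtf1 window held none of these letters, no window of the 4 held the STAT motif TTCNNNGAA, and 4 of the 5 genes had a window. The windows were rich in G and C, at 58.8% for Mt1, 67.6% for Mt2 and 71.2% for Slc30a1, against a median of 52.4% over all windows. A match of letters is a description and shows no binding. Bases farther upstream or after the RefSeq start were not searched, so these counts are not those of whole promoters.

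Between any pair of arrays the correlation over all probe sets was 0.981 to 0.998. All 10 lung markers examined were above the filter level, a log2 signal of 3.06, and 5 of the 6 liver markers with a probe set were under it, Alb among them. Of 3 Mylk probe sets, the largest difference between nmMLCK-/- and WT under SB was -0.97 ± 0.47 on the log2 scale (limma, adjusted p = 1.00). Which isoforms these probe sets read is not known, so they do not check the labels. Among the SB arrays, nmMLCK-/- SB replicate 2 and WT SB replicate 3 stood apart in the glucocorticoid list described further on, and WT SB replicate 3 also in the neutrophil list, so the VILI differences are also given without both of them. Both were also the lowest SB arrays for the lead probe sets of Mt1, Mt2 and Slc39a14. Leaving them out therefore lowers the spread and the difference of these genes by construction, and smaller p-values there are no added support.

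After ventilation the lead probe sets of Mt1, Mt2 and Slc39a14 were higher, and that of Slc30a1 lower, in both genotypes. The fall of Slc30a1 was small, was not seen in its second probe set, and lost its calls in many of the alternative fits. In nmMLCK-/- lungs Mt1, Mt2 and Slc39a14 rose and Slc30a1 fell, which was 4 of the 5 genes, where 20.7% of all genes tested were called, 8.12% as higher and 12.6% as lower. In WT lungs the same 4 genes passed in the same directions, against a background of 15.4%, with 6.34% higher and 9.03% lower. Mtf1 passed in neither. The 5 genes, and the gene lists further on, were chosen with earlier results of these data known. Their shares of calls beside the background are therefore descriptions and no test. Without the 2 SB arrays that stood apart, 3 of the 5 were called in each genotype, Slc30a1 being the one lost. The median difference of the 5 genes was 1.22 in nmMLCK-/- lungs and 1.63 in WT lungs on the log2 scale, where the median of all genes was -0.05 in each. The log2 differences below are given with their standard error from limma, n = 3 arrays per group, and p-values are adjusted over all 12309 genes. In whole lung a difference in RNA per cell and a difference in the share of the cells that make it cannot be told apart.

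**Figure D1:**
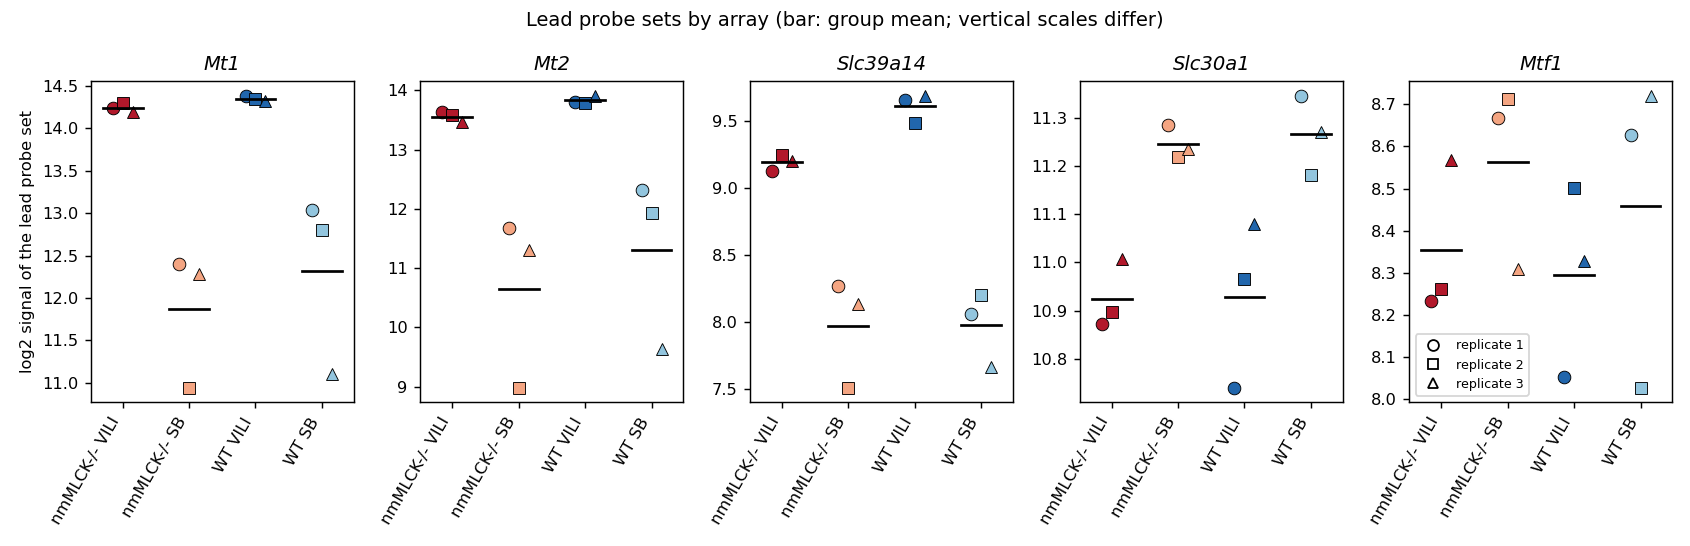
Log2 signal of the lead probe set of each gene in all 12 arrays, by group, with marker shape for the replicate and a bar for the group mean, on separate vertical scales. The VILI arrays lie above every SB array for Mt1, Mt2 and Slc39a14 and under every SB array for Slc30a1, while the Mtf1 groups overlap.

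Mt1 encodes one of the pair of metallothioneins found in most mouse tissues. Its log2 signal was 14.25, 14.30 and 14.19 in the nmMLCK-/- VILI arrays, against 12.40, 10.94 and 12.28 in the nmMLCK-/- SB arrays. It was 14.39, 14.35 and 14.32 in the WT VILI arrays, against 13.04, 12.81 and 11.11 in the WT SB arrays. Every VILI array was above every SB array, which 7.45% of all genes showed over the 12 arrays, and the VILI values were close together while nmMLCK-/- SB replicate 2 and WT SB replicate 3 lay far under the other SB arrays. The SD within a group was 0.056 in nmMLCK-/- VILI and 0.81 in nmMLCK-/- SB, and it was 0.031 in WT VILI and 1.06 in WT SB. Mt1 was 2.37 ± 0.48 higher after VILI in nmMLCK-/- lungs, or 5.17-fold (adjusted p = 0.00898), and 2.03 ± 0.48 higher in WT lungs, or 4.10-fold (adjusted p = 0.0198). Without the 2 SB arrays that stood apart, the differences were 1.91 in nmMLCK-/- lungs (limma, adjusted p = 0.000140) and 1.43 in WT lungs (limma, adjusted p = 0.000137). As these were the lowest SB arrays for Mt1, the smaller p-values follow from the choice of arrays. The call in WT lungs was lost in the 3 of 12 fits that each left out 1 of the WT VILI arrays, with an adjusted p of up to 0.0557 without WT VILI replicate 3.

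The second Mt1 probe set moved the same way. It read 8.58, 8.73 and 7.07 in nmMLCK-/- VILI arrays, against 5.04, 4.97 and 5.06 in nmMLCK-/- SB arrays. It read 10.31, 8.76 and 8.53 in WT VILI arrays, against 6.15, 5.0 and 5.19 in WT SB arrays. The groups again did not overlap, but here the VILI arrays were the more widely spread, and the 2 SB arrays named above were not far from the rest. Its difference was 3.10 ± 0.53 in nmMLCK-/- lungs (limma over all 22443 probe sets, adjusted p = 0.00625) and 3.75 ± 0.53 in WT lungs (adjusted p = 0.00309). The lead Mt1 probe set is of the kind whose probes match more than 1 transcript, so a share of its signal may come from a close relative, which was not tested. The highest signal of any probe set on the arrays was 16.29, which does not show how near the lead Mt1 probe set was to its own upper limit. Within VILI the SD of the lead was 0.056 in nmMLCK-/- and 0.031 in WT lungs. For the second probe set it was 0.91 in nmMLCK-/- and 0.97 in WT lungs. Whether the lead signal was compressed at this level was not tested.

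Mt2, the neighbour and close relative of Mt1, moved with it. It read 13.63, 13.58 and 13.46 in nmMLCK-/- VILI arrays, against 11.67, 8.99 and 11.30 in nmMLCK-/- SB arrays. It read 13.80, 13.79 and 13.91 in WT VILI arrays, against 12.32, 11.94 and 9.63 in WT SB arrays. VILI and SB did not overlap, the 6 SB arrays stood in the same order as for Mt1, and the same 2 SB arrays were lowest. Mt2 was 2.90 ± 0.74 higher after VILI in nmMLCK-/- lungs, or 7.46-fold (adjusted p = 0.0226), and 2.53 ± 0.74 higher in WT lungs, or 5.79-fold (adjusted p = 0.0439). Without the 2 SB arrays it was 2.07 higher in nmMLCK-/- lungs (limma, adjusted p = 0.000272) and 1.70 higher in WT lungs (limma, adjusted p = 0.000357). Here too the arrays left out were the lowest, so the smaller p-values are no added support. Of 12 fits that left out 1 array, the WT call was kept in 4, those without replicate 1 or 2 of either SB group, and the adjusted p rose to 0.113 without WT VILI replicate 3. The nmMLCK-/- call was kept in 8, and was lost without nmMLCK-/- SB replicate 2 or any 1 nmMLCK-/- VILI array, with an adjusted p of up to 0.0674. With the replicate number as a block the WT call of Mt2 was also lost (limma, adjusted p = 0.0636), as it was with every probe set tested (0.0552), without a filter (0.0849) and with the filter at the 20th percentile (0.0659).

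Slc39a14, the zinc importer, read 9.13, 9.25 and 9.21 in nmMLCK-/- VILI arrays, against 8.27, 7.51 and 8.14 in nmMLCK-/- SB arrays. It read 9.66, 9.49 and 9.69 in WT VILI arrays, against 8.06, 8.20 and 7.67 in WT SB arrays. All VILI arrays were above all SB arrays, and the same 2 SB arrays were lowest. Slc39a14 was 1.22 ± 0.19 higher after VILI in nmMLCK-/- lungs, or 2.33-fold (adjusted p = 0.00310), and 1.63 ± 0.19 higher in WT lungs, or 3.10-fold (adjusted p = 0.000896). Both calls were kept in all 12 fits that left out 1 array. Without both of the SB arrays that stood apart, it was 0.99 higher in nmMLCK-/- lungs (limma, adjusted p = 0.000854) and 1.48 higher in WT lungs (limma, adjusted p = 0.000139).

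The other Slc39a14 probe sets were dim. The one past the filter read 4.76, 6.51 and 3.75 in nmMLCK-/- VILI arrays, against 2.29, 2.30 and 2.31 in nmMLCK-/- SB arrays. It read 2.70, 4.25 and 2.76 in WT VILI arrays, against 2.14, 2.28 and 2.20 in WT SB arrays. It was thus near the floor in SB and higher in every VILI array, by 2.70 ± 0.60 in nmMLCK-/- lungs (limma, adjusted p = 0.0163), while the 1.03 ± 0.60 in WT lungs did not pass (adjusted p = 0.300). The 2 remaining probe sets had means under the filter level.

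Slc30a1, the zinc exporter, went the other way by a small amount. It read 10.87, 10.90 and 11.01 in nmMLCK-/- VILI arrays, against 11.28, 11.22 and 11.23 in nmMLCK-/- SB arrays. It read 10.74, 10.97 and 11.08 in WT VILI arrays, against 11.35, 11.18 and 11.27 in WT SB arrays. All VILI arrays were under all SB arrays, as for 10.4% of all genes. Slc30a1 fell by 0.32 ± 0.10 on the log2 scale after VILI in nmMLCK-/- lungs (limma, adjusted p = 0.0406) and by 0.34 ± 0.10 in WT lungs (adjusted p = 0.0406). Each call was kept in 4 of 12 fits that left out 1 array. In nmMLCK-/- lungs these were the fits without WT SB replicate 2 or 3 or WT VILI replicate 1 or 3, and the adjusted p reached 0.115 without nmMLCK-/- VILI replicate 2. In WT lungs they were the fits without replicate 2 of either SB group or replicate 3 of either VILI group, and the adjusted p reached 0.130 without WT VILI replicate 1. With the replicate number as a block the adjusted p was 0.0649 in nmMLCK-/- lungs and 0.0671 in WT lungs. With every probe set tested it was 0.0503 in nmMLCK-/- lungs and 0.0536 in WT lungs. With the array medians set equal it was 0.0789 in nmMLCK-/- lungs and 0.0944 in WT lungs, and without the 2 SB arrays that stood apart it was 0.0704 in nmMLCK-/- lungs and 0.0741 in WT lungs. The second Slc30a1 probe set did not pass, at -0.03 ± 0.12 in nmMLCK-/- lungs (limma, adjusted p = 0.882) and 0.08 ± 0.12 in WT lungs (adjusted p = 0.705).

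Mtf1, which encodes the zinc-sensing transcription factor, read 8.23, 8.26 and 8.57 in nmMLCK-/- VILI arrays, against 8.67, 8.71 and 8.31 in nmMLCK-/- SB arrays. It read 8.05, 8.50 and 8.33 in WT VILI arrays, against 8.63, 8.03 and 8.72 in WT SB arrays. The groups overlapped in both genotypes. The differences were -0.21 ± 0.20 in nmMLCK-/- lungs (limma, adjusted p = 0.478) and -0.16 ± 0.20 in WT lungs (adjusted p = 0.611), with 95% intervals of -0.65 to 0.23 in nmMLCK-/- lungs and -0.60 to 0.27 in WT lungs. The second Mtf1 probe set was at -0.01 ± 0.18 in nmMLCK-/- lungs and -0.20 ± 0.18 in WT lungs (limma, adjusted p = 0.981 and 0.521). The dimmest Mtf1 probe set past the filter pointed up, at 0.60 ± 0.29 in nmMLCK-/- lungs and 0.68 ± 0.29 in WT lungs, neither of which passed (limma, adjusted p = 0.172 and 0.158). For the mean of both genotypes that probe set was 0.64 ± 0.21 higher after VILI (limma, adjusted p = 0.0375), so the direction for Mtf1 depends on the probe set. Without the 2 SB arrays that stood apart, the lead probe set was at -0.13 in nmMLCK-/- lungs and -0.03 in WT lungs (limma, adjusted p = 0.695 and 0.935).

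**Figure D2:**
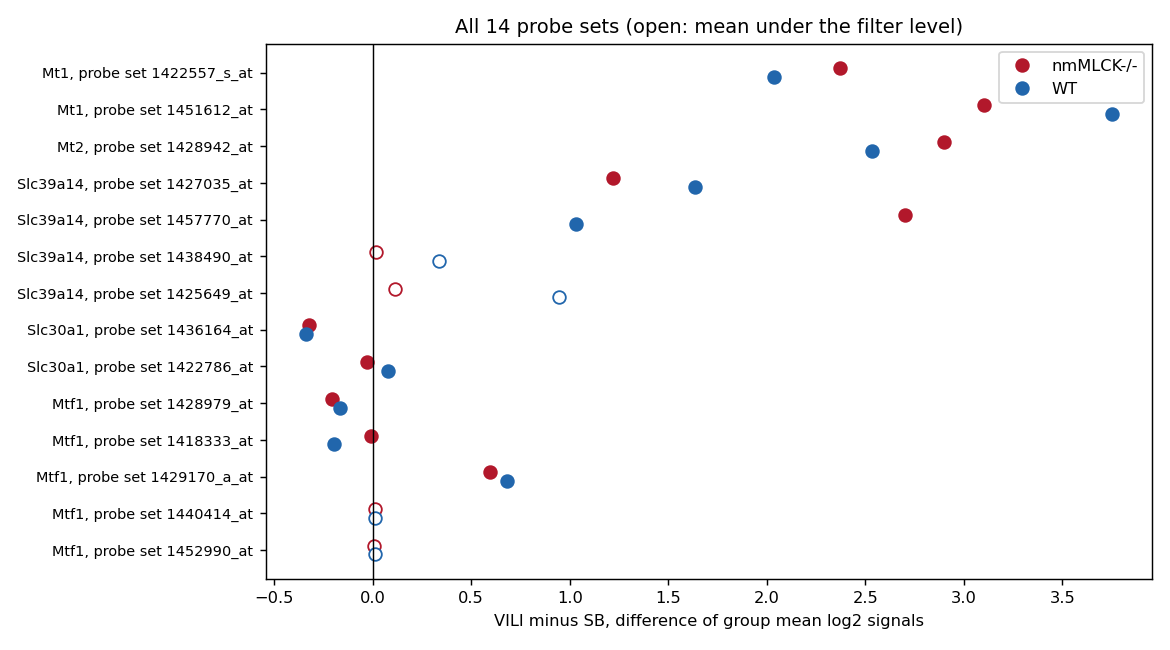
Difference between the mean log2 signals of VILI and SB for each of the 14 probe sets, in nmMLCK-/- and WT lungs, with open circles for probe sets whose mean is under the filter level. Both Mt1 probe sets lie far to the right, and the Mtf1 and Slc30a1 probe sets lie on both sides of 0.

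Averaged over both genotypes, Mt2 was 2.72 ± 0.52 higher after VILI (limma, adjusted p = 0.00324), Mt1 was 2.20 ± 0.34 higher (adjusted p = 0.00103) and Slc39a14 was 1.43 ± 0.14 higher (adjusted p = 8.28e-05). Slc30a1 fell by 0.33 ± 0.07 on this average (limma, adjusted p = 0.00471). These 4 of 5 calls stand against 36.7% of all genes called, 14.1% as higher and 22.6% as lower. Each of them was kept in all 12 fits that left out 1 array, and without both of the SB arrays that stood apart. In this average Mt2 ranked 22, Mt1 ranked 42 and Slc39a14 ranked 138 from the top of 12309 genes by size of the rise, which describes their place and is no test.

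The design asks whether loss of nmMLCK changes these responses, and no difference between the responses passed for any of the 5 genes. The response in nmMLCK-/- lungs minus that in WT lungs was 0.34 for Mt1, with a 95% interval of -1.17 to 1.84, and 0.37 for Mt2, with an interval of -1.96 to 2.69. It was -0.41 for Slc39a14, with an interval of -1.02 to 0.19, 0.02 for Slc30a1, with an interval of -0.29 to 0.32, and -0.04 for Mtf1, with an interval of -0.66 to 0.58. These intervals leave room for sizeable differences in Mt1 and Mt2. Other probe sets past the filter turned the direction for Mtf1, at 0.19 ± 0.25, and for Slc30a1, at -0.11 ± 0.16 (limma, adjusted p = 0.967 and 0.973). They also turned it for Mt1, at -0.65 ± 0.76 (limma, adjusted p = 0.964), and for Slc39a14, at 1.67 ± 0.85 (limma, unadjusted p = 0.0771, adjusted p = 0.964). Without the 2 SB arrays that stood apart, the difference of responses was 0.48 for Mt1, 0.36 for Mt2 and -0.49 for Slc39a14, none of them called. The background was 0% here, since limma called 0 of 12309 genes for the difference of responses, with 619 at an unadjusted p under 0.05. Other settings called 0 to 171 genes and none of the 5.

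**Figure D3:**
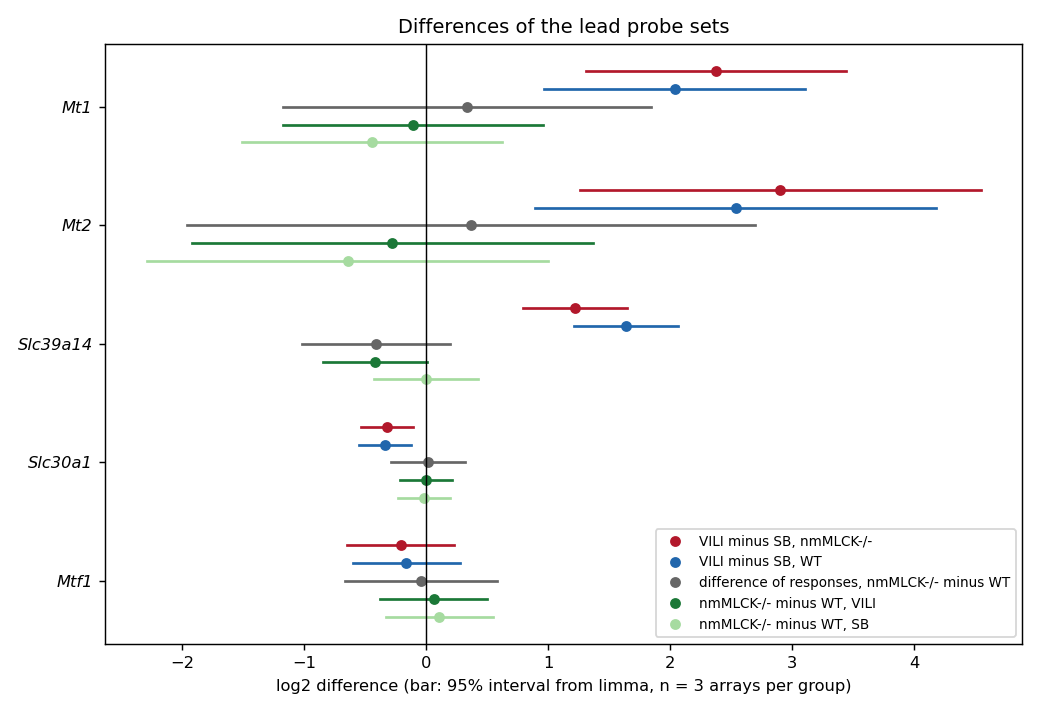
Log2 differences of the lead probe sets with 95% intervals from limma, for the VILI response in each genotype, the difference of the responses and the genotype difference under VILI and under SB. The intervals of the difference of responses include 0 for all 5 genes.

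Under VILI the lead probe sets of Mt1, Mt2 and Slc39a14 were lower in every nmMLCK-/- array than in every WT array. Of all genes, 9.33% also showed this lack of overlap in this direction. None of the 5 genes passed the test, where the background of calls was 0.106%. Slc39a14 was at 9.19 ± 0.06 in nmMLCK-/- VILI and 9.61 ± 0.11 in WT VILI (SD, n = 3 each), a difference of -0.42 ± 0.19 (limma, unadjusted p = 0.0541, adjusted p = 0.585). Its dim second probe set went the other way, at 1.77 ± 0.60 (limma, adjusted p = 0.405), so the probe sets do not give 1 direction. The difference was -0.11 ± 0.48 for Mt1 (limma, adjusted p = 0.978) and -0.28 ± 0.74 for Mt2 (adjusted p = 0.953). For the second Mt1 probe set it was -1.07 ± 0.53 (limma over all probe sets, adjusted p = 0.509), and the groups overlapped. The limma standard error uses 1 spread shared over all 4 groups, and the lead probe sets of Mt1 and Mt2 varied mostly under SB. The SD of Mt2 was 0.086 in nmMLCK-/- VILI and 0.066 in WT VILI, against 1.46 in nmMLCK-/- SB and 1.45 in WT SB. These p-values therefore do not measure the VILI difference against the VILI spread alone. Under SB the groups overlapped for all 5 genes and none passed, where 0.0487% of genes were called, with -0.44 ± 0.48 for Mt1 and -0.64 ± 0.74 for Mt2 (limma, adjusted p = 1.00 for each).

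The lead probe sets of Mt1 and Mt2 varied together within the SB arrays. Over the 6 SB arrays their Pearson r was 0.991 (exact permutation, two-sided, p = 0.00139, adjusted over 8 relations 0.0111) and their Spearman rho was 1.00 (exact p = 0.00278, adjusted 0.0222). Without nmMLCK-/- SB replicate 2 and WT SB replicate 3, r was 0.968 over 4 arrays. With the second Mt1 probe set in place of the lead, a comparison added after seeing the data, r with Mt2 was 0.452 within SB (exact permutation p = 0.378) and 0.609 within VILI (exact permutation p = 0.212), so the SB relation passed with the lead probe set of Mt1 and not with the second. Within the 6 VILI arrays r was 0.817 (exact permutation p = 0.0514, adjusted 0.106) and rho was 0.771. Mt1 and Slc39a14 had an r of 0.885 within SB (exact permutation p = 0.0486, adjusted 0.106), which rests on the 2 arrays that stood apart, since r was -0.52 without them. Within VILI that pair had an r of 0.809 (exact permutation p = 0.0528, adjusted 0.106). The relations of Mt1 with Mtf1 and with Slc30a1 had adjusted p-values of 0.343 to 0.608 by exact permutation of r. The SB and the VILI arrays each mix both genotypes, and 3 arrays per genotype were too few to repeat the relations within each.

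Over all 12 arrays the gene most like Mt1 was Mt2, with a Pearson r of 0.992, followed by Col4a1 at 0.987, Maff at 0.978, Pip5k1b at 0.977, Ezr at 0.976 and Ugcg at 0.976. Slc39a14 stood at rank 66 by likeness to Mt1, with an r of 0.951. The genes most like Slc39a14 were Dio2 at 0.985, Rnf19a at 0.984, Noct at 0.979, Creb5 at 0.978 and Pmvk at 0.978. Mt1 had an r of -0.773 with Slc30a1 and -0.547 with Mtf1. These values come from the same 12 arrays, in which VILI and SB form separate clusters, and they describe likeness only.

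Of 24 further metallothionein and zinc transporter genes, 17 were tested and 7 were under the filter level, among them Mt4. In nmMLCK-/- lungs Slc39a1, a zinc importer of the plasma membrane, was 0.54 ± 0.09 higher after VILI (limma, adjusted p = 0.00486) and Slc39a7, an importer from the secretory pathway into the cytosol, was 0.58 ± 0.11 higher (adjusted p = 0.00651). In WT lungs Slc30a4, which loads zinc into vesicles, was 0.43 ± 0.09 higher (limma, adjusted p = 0.0111). In the other genotype these genes did not pass. Slc39a1 was 0.05 ± 0.09 and Slc39a7 was 0.32 ± 0.11 higher in WT lungs, and Slc30a4 was 0.15 ± 0.09 higher in nmMLCK-/- lungs. The zinc importer Slc39a10 fell in both genotypes, by 1.01 ± 0.15 in nmMLCK-/- lungs (limma, adjusted p = 0.00264) and by 0.56 ± 0.15 in WT lungs (adjusted p = 0.0362). The calls were thus 2 higher and 1 lower of 17 in nmMLCK-/- lungs, where 20.7% of all genes were called, and 1 higher and 1 lower of 17 in WT lungs, where 15.4% were. For the mean of both genotypes 3 were called higher and 1 lower, where 36.7% of all genes were called. The list's median was -0.02 in nmMLCK-/- lungs and 0.00 in WT lungs, beside -0.05 for all genes.

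Slc39a10 read 9.89, 9.74 and 9.48 in nmMLCK-/- VILI arrays, against 10.61, 10.95 and 10.59 in nmMLCK-/- SB arrays, and 10.15, 9.90 and 9.90 in WT VILI arrays, against 10.43, 10.39 and 10.80 in WT SB arrays. Every VILI array was under every SB array. Slc39a8, an importer close to Slc39a14 in sequence, did not pass, at 0.30 ± 0.10 in nmMLCK-/- lungs (limma, adjusted p = 0.0654) and -0.11 ± 0.10 in WT lungs (adjusted p = 0.516). Mt3 lay near the floor in all arrays, from 3.11 to 3.35. None of the 17 passed for the difference of responses, where Slc39a1 had the smallest p of the list, at 0.49 ± 0.13 (limma, unadjusted p = 0.00410, adjusted p = 0.867).

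**Figure D4:**
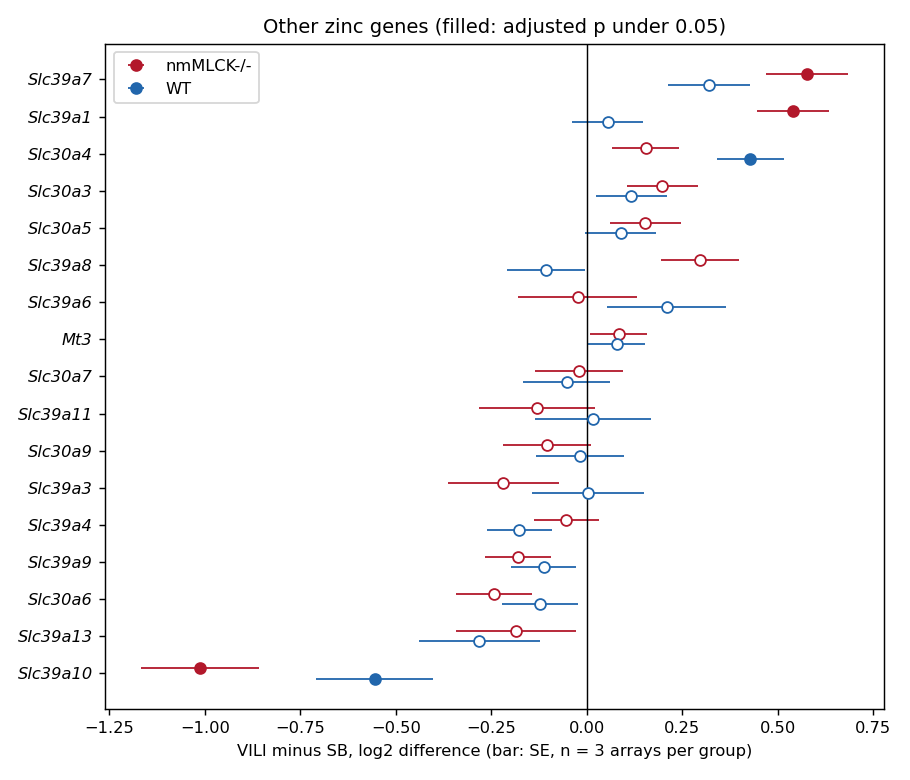
Log2 difference between VILI and SB with its standard error for the 17 other zinc genes tested, in nmMLCK-/- and WT lungs, with filled points where the adjusted p was under 0.05. Slc39a10 lies far to the left in both genotypes and most other genes lie near 0.

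Genes of iron and copper handling were read beside the zinc genes, with 18 of 20 tested. In nmMLCK-/- lungs Lcn2, which binds bacterial iron carriers, rose and the transporters Slc31a2 and Slc11a2 fell, and in WT lungs the copper importer Slc31a1 fell, with no gene called higher. Slc31a2 was -0.79 ± 0.21 and Lcn2 was 0.76 ± 0.19 in nmMLCK-/- lungs (limma, adjusted p = 0.0265 and 0.0201), and Slc31a1 was -0.31 ± 0.09 in WT lungs (adjusted p = 0.0400). Each pointed the same way in the other genotype without passing there. In WT lungs Slc31a2 was -0.64 ± 0.21, Slc11a2 was -0.57 ± 0.19 and Lcn2 was 0.42 ± 0.19. In nmMLCK-/- lungs Slc31a1 was -0.23 ± 0.09. Of the 18, 1 was called higher and 2 lower in nmMLCK-/- lungs, where 20.7% of all genes were called. In WT lungs 1 was called lower, where 15.4% of all genes were called. For the mean of both genotypes 2 were called higher and 3 lower, where 36.7% of all genes were called. None of the 18 passed for the difference of responses. The list's median was 0.10 in nmMLCK-/- lungs and -0.03 in WT lungs, beside -0.05 for all genes.

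The regulators known to act on metallothioneins were read the same way. Of 16 tested genes of the interleukin 6 and STAT3 response, 5 rose in nmMLCK-/- lungs, where 8.12% of all genes were called higher, and 6 rose in WT lungs, where 6.34% were, and none fell. For the mean of both genotypes 13 of the 16 rose, against 14.1% of all genes. As this list was chosen with earlier results of these data known, its share is a description and no test. Socs3, a feedback inhibitor of this pathway, was 1.84 ± 0.18 higher in nmMLCK-/- lungs (limma, adjusted p = 0.000353) and 1.93 ± 0.18 higher in WT lungs (adjusted p = 0.000341). The list's median was 0.66 in nmMLCK-/- lungs and 0.55 in WT lungs. Of 16 glucocorticoid response genes none passed in either genotype, where 20.7% of all genes were called in nmMLCK-/- lungs and 15.4% in WT lungs. Their standard errors ran up to 1.08, where the median over all genes was 0.148, so this count does not show a lack of response. The median of these 16 was 0.48 in nmMLCK-/- lungs and 0.43 in WT lungs. Each of these medians includes 1 of the 2 SB arrays that stood apart in this list. For the mean of both genotypes 2 of these 16 rose, where 14.1% of all genes were called higher. They were Errfi1, by 0.56 ± 0.18 (limma, adjusted p = 0.0360), and Cdkn1a, by 1.90 ± 0.66 (adjusted p = 0.0452).

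The glucocorticoid list moved with the metallothioneins among the SB arrays. Its median deviation from each gene's mean was -1.14 in nmMLCK-/- SB replicate 2 and -0.78 in WT SB replicate 3, the arrays with the lowest Mt1 and Mt2, and lay between 0.11 and 0.45 in the other 4 SB arrays. It was 0.14 to 0.23 in nmMLCK-/- VILI arrays and 0.20 to 0.31 in WT VILI arrays. In this list those 2 arrays were lower than all others, and the VILI arrays lay within the range of the other 4 SB arrays. Any part of glucocorticoids in the metallothionein values was not tested.

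**Figure D5:**
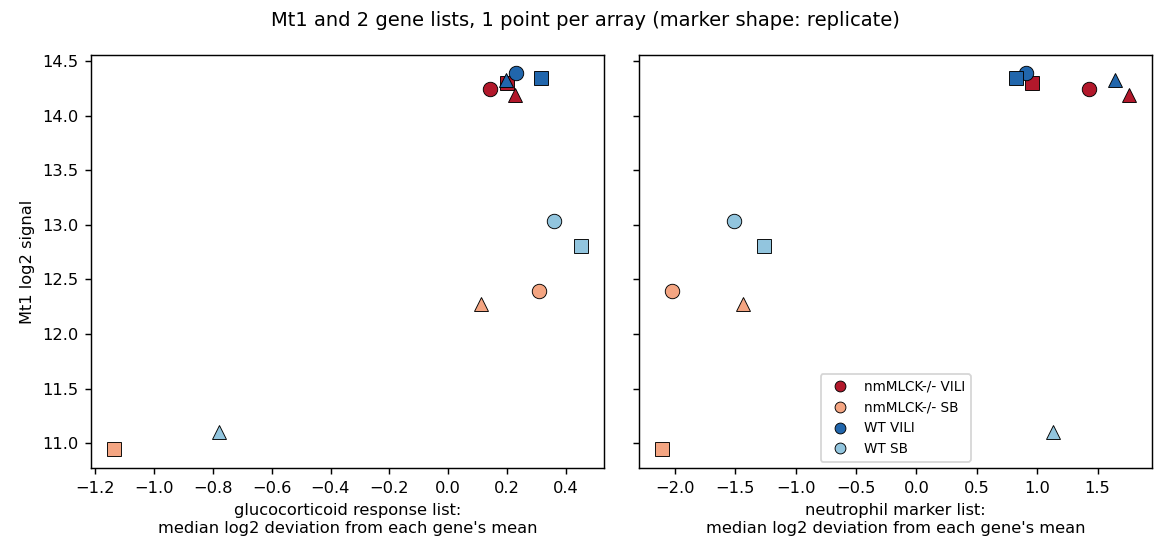
Mt1 log2 signal against the median log2 deviation of the glucocorticoid response list (left) and of the neutrophil marker list (right), 1 point per array. The 2 SB arrays lowest in Mt1 are also lowest in the glucocorticoid list. In the neutrophil list WT SB replicate 3 lies among the VILI arrays, while nmMLCK-/- SB replicate 2 is the lowest array.

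Of 9 neutrophil markers tested, 8 rose after VILI in nmMLCK-/- lungs, where 8.12% of all genes were called higher, and 3 rose in WT lungs, where 6.34% were. Of the 6 that did not pass in WT lungs, Ngp was at -1.15 ± 0.86 (limma, adjusted p = 0.401) and the others were above 0. Camp was under the filter level. The summed signal of the 10 markers with a probe set was 35316 to 58890 in nmMLCK-/- VILI and 4147 to 5377 in nmMLCK-/- SB, and 30760 to 51312 in WT VILI and 6314 to 42812 in WT SB. The highest SB value was that of WT SB replicate 3, which had the lowest Mt1, Mt2 and Slc39a14 of the WT arrays. The metallothioneins and neutrophil markers thus went opposite ways in that array. In nmMLCK-/- SB replicate 2, with the lowest Mt1 and Mt2 of all arrays, the neutrophil sum was also the lowest, at 4147. There both were low. Of 8 alveolar macrophage markers none passed in nmMLCK-/- lungs and 2 rose in WT lungs, Marco and Cd68, and their summed signal was 22494 to 25732 in nmMLCK-/- VILI and 21084 to 27566 in nmMLCK-/- SB, and 25507 to 28955 in WT VILI and 22094 to 24483 in WT SB. The part of these cells in the results was not tested.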

How the data were processed

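The authors deposited log2 signals per probe set for 12 lung arrays. Per the submitters' processing notes MAS5 and GCRMA were used, with no version or role given. The sources used here name no genome build. Of 45037 probe sets, 34945 carried 1 symbol, 932 several and 9160 none.

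Probe sets with 1 symbol and a mean at or above the 40th percentile (log2 3.06) were kept, 22443 in all, with the highest-mean probe set for each of 12309 genes. The test was limma 3.58.1 under R 4.3.3 (lmFit and eBayes, 4 group means, Benjamini-Hochberg over all genes, threshold 0.05), after the code was tested on simulated data. Correlations used exact permutation in SciPy 1.17.1. The number of arrays limits the precision: the median standard error was 0.148 between groups and 0.209 for a difference of responses. Such normalized values cannot show a change in total RNA. The arrays are of separate animals per the series text.

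The members and lists were chosen with earlier results of these data known. Genes named are the members, the 5 most like Mt1 or Slc39a14, and, by choice, list genes that passed or had one of the 4 smallest p. Mt3, Mt4, Camp and Ngp were named after their values were seen. Promoter windows are RefSeq's. Same-numbered replicates correlated at -0.63 to 0.40 in their deviations, so the numbers were not taken as pairs. Alternatives covered scaling, filter, probe set choice, prior, block, array weights and arrays left out.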

Additional observations from a re-analysis of the deposited data

How the results depend on the processing

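With the lead probe sets, the direction of Mt1, Mt2, Slc39a14 and Slc30a1 after VILI held in both genotypes under every alternative run, and Slc39a14 kept its calls. The second probe sets stand with the results. Of the 5 genes, 4 were called in each genotype. With every probe set tested, and with the replicate number as a block, 2 were called in WT lungs. Leaving out 1 array gave 2 to 4 called in nmMLCK-/- lungs and 1 to 4 in WT lungs. The block changed no call other than those of Mt2 in WT lungs and of Slc30a1 named with the results.

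Genotype differences near 0 changed sign. With array weights Mtf1 was at 0.099 for the difference of responses, -0.030 for nmMLCK-/- minus WT under VILI and -0.13 under SB. Limma warned that these weights did not converge, so a gene-by-gene method was added after seeing the data, and gave 0.053, -0.015 and -0.068. Slc39a14 under SB was at 0.0316 and 0.0167 with these 2 weightings, 0.0172 with equal medians, 0.0237 with quantile normalization and 0.0709 without the 2 SB arrays that stood apart. Slc30a1 was at 0.0018 under SB and 0.0023 under VILI with equal medians, and 0.0116 under VILI with quantile normalization.

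Over the 12 fits that left out 1 array, the difference of responses ran from -0.13 to 0.94 for Mt1, -0.47 to 1.20 for Mt2, -0.18 to 0.17 for Mtf1 and -0.077 to 0.092 for Slc30a1. Under VILI, nmMLCK-/- minus WT ran from -0.060 to 0.16 for Mtf1 and -0.097 to 0.072 for Slc30a1. Under SB it ran from -1.05 to 0.021 for Mt1, -1.48 to 0.19 for Mt2, -0.11 to 0.24 for Mtf1, -0.16 to 0.23 for Slc39a14 and -0.062 to 0.020 for Slc30a1. For Mt1 and Mt2 both ends came without WT SB replicate 3 or nmMLCK-/- SB replicate 2.

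Genes called for the difference of responses numbered 171 with array weights, 1 with the gene-by-gene method, 1 without a filter and 11 without the 2 SB arrays, against 0. Array weights called 5522 genes in nmMLCK-/- and 4244 in WT lungs, and the gene-by-gene method 4017 and 3836, against 2554 and 1892. For nmMLCK-/- minus WT under VILI the count was 852 and 84 with these weightings, 28 without the 2 SB arrays, 6 without a filter, 5 with a filter at the 20th percentile and 2 with the block, against 13. Under SB it was 102, 26, 19 without the 2 SB arrays and 0 with the block, against 6. With every probe set tested, 7191 probe sets passed for the mean response, against 4520 genes. Leaving out 1 array gave 1232 to 3301 genes in nmMLCK-/- and 933 to 2052 in WT lungs, 3551 to 4659 for the mean, 0 to 6 for the difference of responses, 2 to 19 for nmMLCK-/- minus WT under VILI and 0 to 16 under SB. The last 3 were highest without WT SB replicate 3. With equal medians 52.5% of WT calls were higher, against 41.2%.

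Leaving out the 2 arrays farthest from the Mt1 median, r turned to -0.52 for Slc39a14 within SB, and to 0.84 for Mtf1 and 0.68 for Slc30a1 within VILI. With the other gene's second probe set, r with Mt1 was -0.22 for Slc39a14 and -0.041 for Slc30a1 within SB, and -0.29 and 0.41 within VILI. With the second Mt1 probe set, r with Mt2 within SB was 0.452. The cause of these changes was not tested.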
